A study of Mus musculus with 18 samples.

Results

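The genes described here are the nuclear genes for subunits of the mitochondrial respiratory chain and of ATP synthase, measured in mouse fibroblasts during forced conversion toward heart muscle cells. Members were taken by gene symbol from a table of read counts for 24514 genes. The symbols were those of Nduf genes of the a, b, c, s and v series, Sdha to Sdhd, Uqcr genes, Cox4 to Cox8 genes and Atp5 genes. Symbols of pseudogenes, related sequences and clones were left out, and at least 10 counts over all 18 libraries were required. Of 84 rows with such symbols 80 met the minimum, and 79 of these passed the filter on low counts and were tested. The rule uses symbols and summed counts and no expression change, but it was set with earlier results of these data known. The tested siRNA, siChst7, targets Chst7, the gene of a Golgi sulfotransferase that acts on glycosaminoglycans such as chondroitin, and siControl is the control siRNA. All 6 groups came from the line iMGT-Myh6-eGFP-MEF, mouse embryonic fibroblasts that carry doxycycline-inducible Mef2c, Gata4 and Tbx5 and a green fluorescent reporter named for the cardiac gene Myh6. Cells were transfected a day before day 0. The siChst7 and siControl groups of day 0 received no doxycycline, and those of days 1 and 3 were harvested 1 and 3 days after doxycycline at 1 µg/mL was added. Each group had 3 biological replicates, each pooled from 40 wells. The labels name 1 line and do not say whether it is a clone, and p-values measure the spread between pooled cultures of that line.

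The respiratory chain passes electrons from NADH (complex I) and succinate (complex II) through complex III to oxygen at complex IV, and complex V uses the proton gradient this builds to make ATP. Most subunits are encoded in the nucleus, while the mitochondrial genome encodes a few catalytic subunits of complexes I, III, IV and V. Heart muscle is rich in mitochondria, and in mammals the heart uses its own isoforms of some complex IV subunits, Cox6a2, Cox7a1 and, in the mouse, Cox8b. The transcription factors NRF1, the ETS factor GABP (also called NRF2), YY1 and the oestrogen-related receptors (ERR) are known to act on promoters of many of these genes.

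Promoter windows of 300 bases, from 250 before to 50 after the start of transcription, were available from RefSeq (GRCm38.p6) for 63 of the 80 members. Windows of 4 members are shown because they carry the motifs searched, or none, and belong to genes described below. They were chosen after expression values were seen. All are given 5′ to 3′ in the direction of the gene, with motif matches on either strand in capitals. Cox7b, at chrX:106015450-106015749 on the plus strand, holds a match to the YY1 motif AANATGGC. Atp5l, at chr9:44920693-44920992 on the minus strand, holds matches to the ETS motif CCGGAAG at either end and to the ERR motif AAGGTCA between them. Uqcrc1, at chr9:108936398-108936697 on the plus strand, holds a pair of matches to the NRF1 motif, GCGC and TGCGC with any 1 base between. Cox7a1, at chr7:30183921-30184220 on the plus strand, held no match to any of the 5 motifs searched.
Cox7b: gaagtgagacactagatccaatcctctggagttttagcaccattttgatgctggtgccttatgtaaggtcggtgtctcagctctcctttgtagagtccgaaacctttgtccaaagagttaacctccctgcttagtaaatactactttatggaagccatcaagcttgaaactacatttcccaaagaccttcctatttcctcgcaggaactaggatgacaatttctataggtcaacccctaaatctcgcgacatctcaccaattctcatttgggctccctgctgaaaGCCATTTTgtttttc
Atp5l: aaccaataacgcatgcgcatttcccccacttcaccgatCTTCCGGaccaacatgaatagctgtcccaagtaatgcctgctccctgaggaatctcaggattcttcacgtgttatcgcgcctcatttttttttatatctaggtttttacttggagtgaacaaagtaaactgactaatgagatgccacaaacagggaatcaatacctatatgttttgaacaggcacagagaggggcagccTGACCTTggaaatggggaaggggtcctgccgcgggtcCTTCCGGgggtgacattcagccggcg
Uqcrc1: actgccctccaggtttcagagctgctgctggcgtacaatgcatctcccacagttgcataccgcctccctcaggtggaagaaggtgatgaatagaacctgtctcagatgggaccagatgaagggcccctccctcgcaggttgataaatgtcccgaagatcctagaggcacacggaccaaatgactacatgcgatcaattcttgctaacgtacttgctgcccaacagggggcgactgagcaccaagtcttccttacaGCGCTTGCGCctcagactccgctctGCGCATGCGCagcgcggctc
Cox7a1: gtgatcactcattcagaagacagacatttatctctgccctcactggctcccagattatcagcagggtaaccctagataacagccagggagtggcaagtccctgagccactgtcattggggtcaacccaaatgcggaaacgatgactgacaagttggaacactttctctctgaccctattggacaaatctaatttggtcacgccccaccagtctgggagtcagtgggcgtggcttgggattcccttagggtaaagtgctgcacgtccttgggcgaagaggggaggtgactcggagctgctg
Of 68 windows of members, some with several starts per gene, 25% held the NRF1 motif, against 4.6% of all 32851 windows. The ETS motif was in 23.5% of members' windows and 8.9% of all windows. The YY1 motif was in 23.5% and 6.1%, and the ERR motif in 10.3% and 4.7%. The MEF2 motif, CTA and TAG with any 4 bases between, was in 1.5% of members' windows and 3.7% of all windows. Both strands were searched, matches of different motifs could overlap, and a match is a description of letters, not a measured binding site.

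Library totals ran from 30590742 to 50021142 counts. Chst7 itself fell by 5.47 ± 0.18, 5.65 ± 0.17 and 3.54 ± 0.15 on the log2 scale at days 0, 1 and 3 (± SE here and below), the direction the labels name. None of the 13 protein genes of the mitochondrial genome was a row of the table. Of 17 cardiac muscle markers, summed levels ran from 1690 to 2320 CPM (counts per 1000000, with library sizes scaled by TMM) in siChst7 libraries and from 1340 to 1430 CPM in siControl libraries of day 3. Of 14 fibroblast markers, they ran from 12400 to 13100 CPM and from 14100 to 14800 CPM in the same groups, with Lum, Thy1 and Tcf21 below 1 CPM. Summed markers of leukocytes, endothelium, epithelium, skeletal myoblasts and adipocytes were each at most 66.3 CPM in every library. A gene counted as called where edgeR's quasi-likelihood test over 13802 genes gave an adjusted p below 0.05. Of 11 tested fibroblast markers 3 were called higher and 5 lower in siChst7 than in siControl cells of day 3, against 23.1% and 21.6% of all genes tested. S100a4 differed by 1.29 ± 0.11 and Fn1 by -0.47 ± 0.05 on the log2 scale. In bulk RNA, more cells with a transcript and more transcript per cell cannot be told apart.

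Complex V gave the most RNA of the 5 complexes. Its 17 members summed to 4755 CPM on average over all libraries, against 2753 CPM for the 36 members of complex I, 1827 CPM for 15 of complex IV, 969.3 CPM for 8 of complex III and 560.7 CPM for 4 of complex II. Per kilobase of the deposited gene Length, the highest member of each complex was Atp5b, the catalytic beta subunit, at 1045 CPM per kb, Cox4i1, a core structural subunit of complex IV, at 510.3 CPM per kb, Ndufa4 at 300.8 CPM per kb, Uqcr11 at 189.6 CPM per kb and Sdhd, a membrane anchor of complex II, at 116 CPM per kb. Ndufa4 carries a complex I symbol and was later assigned to complex IV. The lowest were Ndufa4l2, the hypoxia-linked relative of Ndufa4, at 0.2151 CPM per kb, Cox4i2 at 0.1419 CPM per kb, Atp5sl at 3.42 CPM per kb, Uqcrc2 at 59.15 CPM per kb and the flavoprotein Sdha at 71.92 CPM per kb. Atp5sl and Atp5s are older symbols of Dmac2 and Dmac2l, which are not subunits of ATP synthase. Between the complexes the median Length differed, from 617 bases in complex IV to 1232 bases in complex II. The rows below the count minimum were Cox7b2 with 9 counts, Cox8b with 7, Ndufs5 with 1 and Cox8c with 0 over 18 libraries, which for Cox8c allows a level of up to 0.00412 CPM (3 counts, counting error only). Cox4i2 had 78 counts and did not pass the filter. Cox7b2 and Cox8c are known from testis, Cox8b from heart and skeletal muscle, and Ndufs5 encodes a complex I subunit. Apart from Ndufa4l2, the other rows of complex I each had at least 15404 counts. Whether the 1 count of Ndufs5 reflects the cells, the counting or the annotation was not tested.

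The summed level of the members differed most between siChst7 and siControl cells on day 3. On day 0 it was 9714, 9635 and 8474 CPM in siChst7 libraries and 9145, 9382 and 9511 CPM in siControl libraries. On day 1 it was 11402, 11161 and 11280 CPM in siChst7 libraries and 10943, 11118 and 10711 CPM in siControl libraries. On day 3 it was 14209, 11945 and 15412 CPM in siChst7 libraries and 10475, 10491 and 10568 CPM in siControl libraries. The groups of day 3 did not overlap, and those of day 1 did not either, by a narrow margin. The siControl libraries of day 3 lay close together, with an SD of 49.7 CPM, while replicate 2 of siChst7 lay well below the others of its group. Complex IV reached 2780 ± 431 CPM in siChst7 and 1850 ± 11.2 CPM in siControl cells of day 3 (SD, n = 3 each), and complex I reached 3900 ± 598 CPM and 2770 ± 5.57 CPM. Complex II was at 598 ± 48.3 CPM in siChst7 and 557 ± 3 CPM in siControl cells of day 3, and its libraries overlapped.

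**Figure D1:**
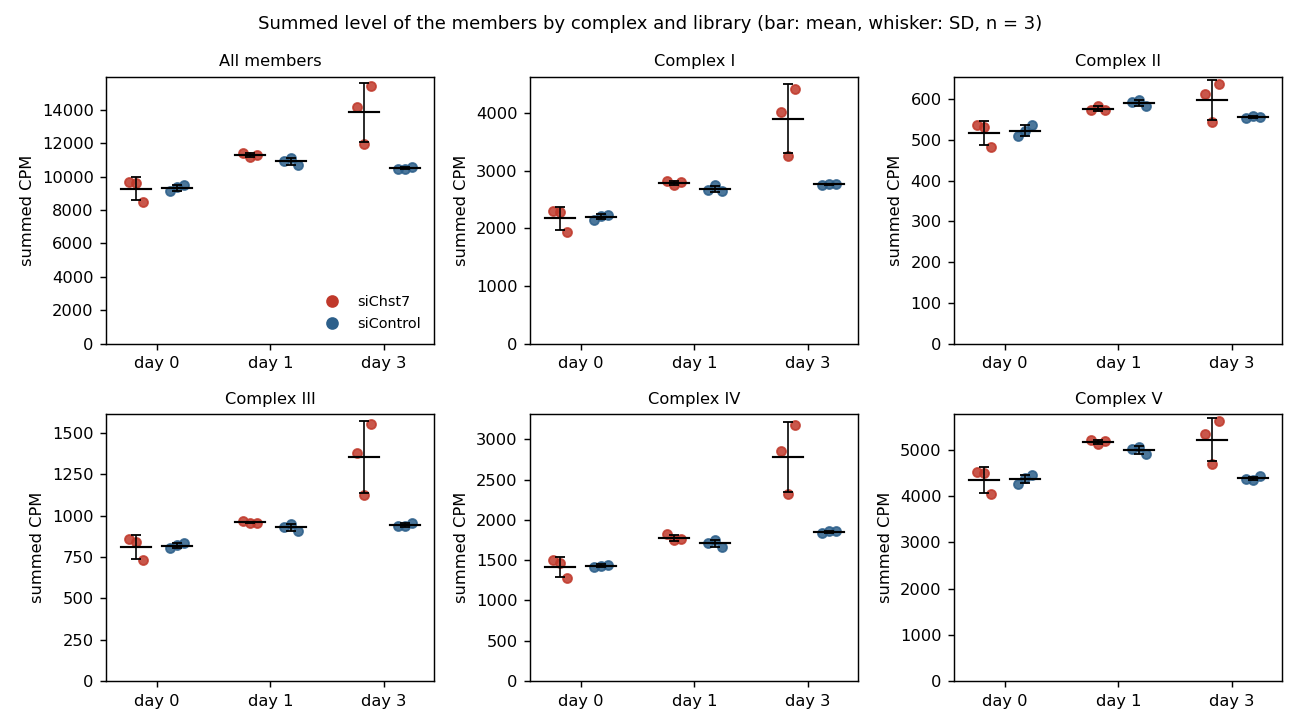
Summed CPM (y axis) of all members and of each complex by day (x axis), with a point per library, the mean as a bar and the SD as a whisker (n = 3). The 3 siChst7 libraries of day 3 sit between 11945 and 15412 CPM for all members, above the siControl libraries of that day, and spread more widely than any other group.

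Before doxycycline and on the first day, few members were called higher or lower after knockdown of Chst7. On day 0, 1 of 79 tested members was higher and 2 were lower in siChst7 than in siControl cells, where 13.9% and 13.5% of all genes tested were called higher and lower. On day 1, 2 were higher and 1 was lower, against 8.86% and 8.72% of all genes tested. When the 6 libraries of day 1 were fitted alone, 20 were higher and 2 lower. The share of all genes called in that fit was not worked out, so these 2 counts have no background to be set against. The main fit takes in the spread of all 18 libraries, and the siChst7 libraries of day 3 spread widely. The SD of the members' summed level was 1760 CPM there, against 121 CPM in siChst7 and 204 CPM in siControl cells of day 1. The part of this in the low count of calls on day 1 was not tested. The members' median log2 fold change (log2FC) was -0.01 on day 0 and 0.05 on day 1. The groups did not overlap for 2 higher and 4 lower members on day 0, where 22.4% and 21.2% of all genes tested were such, and for 25 higher and 3 lower members on day 1, where 21.3% and 18.1% were. With an offset for gene Length (described below), 6 were called higher and 2 lower on day 0, against 14.6% and 15.1% of all genes, and 2 higher and 7 lower on day 1, against 10.4% and 9.38%. Sdhc, a membrane anchor of complex II that holds part of its ubiquinone site, was called lower on each day. It stood at 114, 113 and 104 CPM in siChst7 and 119, 119 and 126 CPM in siControl cells of day 0, and at 113, 115 and 112 CPM in siChst7 and 132, 136 and 127 CPM in siControl cells of day 1. On day 3 it was at 96.8, 107 and 102 CPM in siChst7 and 130, 129 and 132 CPM in siControl cells. The groups did not overlap on any day. Its log2FC was -0.14 ± 0.04 on day 0, -0.22 ± 0.05 on day 1 and -0.36 ± 0.05 on day 3 (edgeR adjusted p = 0.0248, 0.00156 and 2.38e-06). The call of day 0 was lost without siChst7 replicate 3 (log2FC -0.10, adjusted p = 0.131) and without siControl replicate 3 (log2FC -0.11, adjusted p = 0.12), both by edgeR, and also with library totals, no filter or the length offset. Sdha was higher on day 0, at 192, 188 and 185 CPM in siChst7 and 172, 171 and 171 CPM in siControl cells, with a log2FC of 0.14 ± 0.03 (edgeR adjusted p = 0.00387).

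On day 3 most members were higher in siChst7 cells. Of 79 tested members 63 were higher and 6 lower, with a median log2FC of 0.57, where 23.1% of all genes tested were called higher and 21.6% lower. The groups did not overlap for 54 members that were higher and 6 that were lower, against 24.2% and 24.9% of all genes tested. The count of higher members was 59 without siChst7 replicate 1, 65 without replicate 2 and 50 without replicate 3. In the same siChst7 libraries, in the order of replicates, the ribosomal RNA precursor Rn45s took 1.96%, 0.605% and 0.654% of counts, against 0.399% to 0.542% in siControl libraries of day 3. Of 14 tested cardiac muscle markers 9 were higher in siChst7 cells of day 3, while Myl3 was at 0 in both groups and Myh6, Myh7, Myl2 and Ryr2 were each at most 2.51 CPM on average. The part of either in the members' change was not tested. Uqcrb, Cox6c, Cox7a2, Cox7c and Ndufa4 were called higher in each of the 6 fits that left out a library of day 3.

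In complex I, 28 of 36 members were higher and 1 was lower on day 3, with a median log2FC of 0.57. Ndufa4 is counted here by its symbol, though it was later assigned to complex IV. It had 347, 248 and 393 CPM in siChst7 and 145, 139 and 144 CPM in siControl cells, so that the lowest siChst7 library was above every siControl library. Its log2FC was 1.21 ± 0.11 (edgeR adjusted p = 3.05e-08). Ndufa13, also known as the cell death regulator GRIM-19, had 208, 186 and 227 CPM in siChst7 and 152, 152 and 151 CPM in siControl cells. The groups did not overlap, and the log2FC was 0.45 ± 0.06 (edgeR adjusted p = 1.09e-05). Ndufv1, the flavoprotein that takes electrons from NADH, was the member that fell, to 83.5, 93.4 and 81.8 CPM in siChst7 cells, against 98.6, 108 and 102 CPM in siControl cells. Every siChst7 library was below every siControl library, with a log2FC of -0.26 ± 0.05 (edgeR adjusted p = 0.000248).

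In complex II, Sdhd and the iron-sulfur subunit gene Sdhb were higher, Sdhc was lower and Sdha was not called. Sdhb is named to complete the complex and had a log2FC of 0.29 ± 0.10 (edgeR adjusted p = 0.017). Sdhd had 199, 147 and 207 CPM in siChst7 and 134, 136 and 129 CPM in siControl cells, with a log2FC of 0.47 ± 0.08 (edgeR adjusted p = 0.000127). Sdha was near level, at 213, 212 and 211 CPM in siChst7 and 210, 214 and 214 CPM in siControl cells, with a log2FC of 0.00 ± 0.03 (edgeR adjusted p = 0.939).

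In complex III, 7 of 8 members were higher and Uqcrc1 was lower. Uqcrb, a small subunit that binds near the ubiquinone site, had 151, 110 and 176 CPM in siChst7 and 57.8, 58.8 and 60.8 CPM in siControl cells. The groups were far apart, with a log2FC of 1.30 ± 0.10 (edgeR adjusted p = 1.05e-08). Uqcrc1, a core protein of the matrix arm, had 181, 215 and 194 CPM in siChst7 and 246, 240 and 248 CPM in siControl cells. It was below siControl in every siChst7 library, with a log2FC of -0.31 ± 0.05 (edgeR adjusted p = 3.47e-05). Its partner core protein Uqcrc2 had 139, 109 and 147 CPM in siChst7 and 109, 108 and 108 CPM in siControl cells, and the groups overlapped. Its log2FC was 0.28 ± 0.08 (edgeR adjusted p = 0.00797), a call lost without siChst7 replicate 3 (log2FC 0.14, edgeR adjusted p = 0.138).

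In complex IV, 13 of 14 tested members were higher and Cox4i1 was lower. Cox6c, a small subunit of the inner membrane, had 398, 284 and 464 CPM in siChst7 and 155, 158 and 163 CPM in siControl cells. Its groups did not overlap, and the log2FC was 1.27 ± 0.11 (edgeR adjusted p = 2.41e-08). Cox7c, another small membrane subunit, had 194, 147 and 234 CPM in siChst7 and 79.4, 81.5 and 82.2 CPM in siControl cells, with a log2FC of 1.24 ± 0.11 (edgeR adjusted p = 3.05e-08). Cox7b, named here after its values were seen because its promoter is shown, had 236, 175 and 260 CPM in siChst7 and 93.1, 94 and 96.3 CPM in siControl cells (log2FC 1.24 ± 0.10, edgeR adjusted p = 1.32e-08). In all of these, siChst7 replicate 2 was the lowest of its group and still above every siControl library.

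In complex V, 13 of 17 members were higher and Atp5a1 and Atp5b, the alpha and beta subunits of the catalytic head, were lower. Atp5b had 1650, 1760 and 1640 CPM in siChst7 and 1830, 1840 and 1860 CPM in siControl cells, with a log2FC of -0.13 ± 0.04 (edgeR adjusted p = 0.0112). Atp5a1 had 562, 625 and 554 CPM in siChst7 and 676, 660 and 672 CPM in siControl cells, with a log2FC of -0.21 ± 0.04 (edgeR adjusted p = 0.000662). For both, the groups did not overlap. The 3 genes Atp5g1, Atp5g2 and Atp5g3, which encode the same mature ring subunit, had log2FC of 0.36 ± 0.09, 0.72 ± 0.08 and 0.50 ± 0.08 and were called higher. None of the 3 was called with the length offset, and Atp5g1 and Atp5g3 turned to -0.08 and -0.05, while Atp5g2 was at 0.10. The gene of the membrane subunit g, Atp5l, named after its values were seen, had 270, 189 and 318 CPM in siChst7 and 118, 117 and 114 CPM in siControl cells (log2FC 1.15 ± 0.11, edgeR adjusted p = 1.46e-07).

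**Figure D2:**
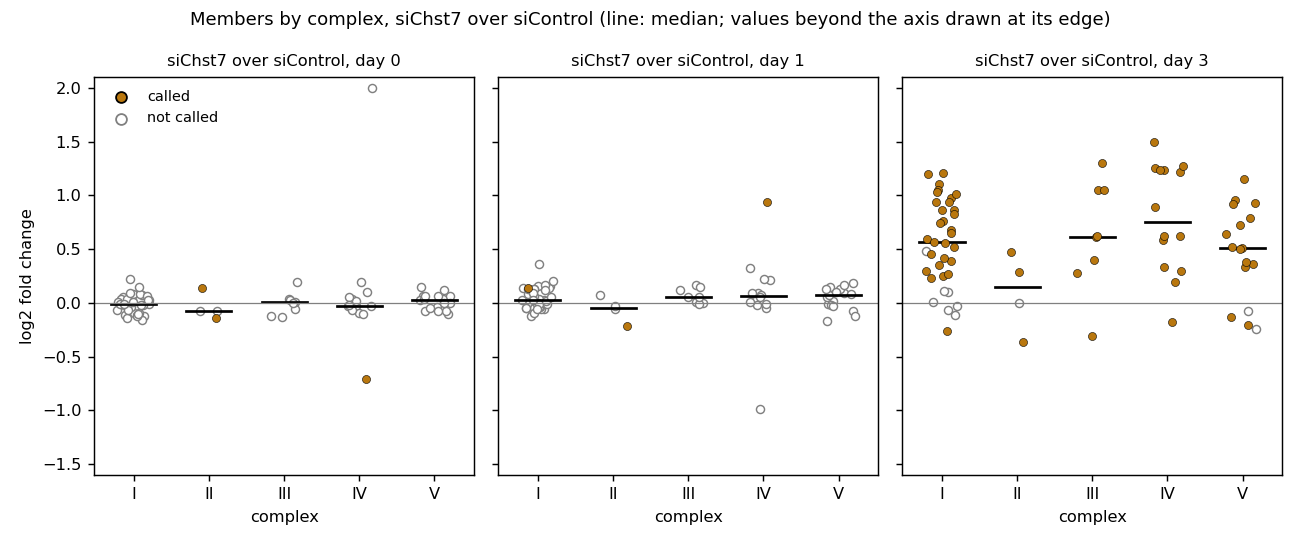
Log2 fold change of siChst7 over siControl (y axis) for each tested member by complex (x axis) on days 0, 1 and 3, with filled points for called members and lines at the medians. On day 3 the 13 members of complex IV that were called higher and the 28 of complex I lie above 0, and few members are called on days 0 and 1. The open point at the upper edge on day 0 is Cox6b2, with 6 counts in siChst7 and 0 in siControl libraries.

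The change of day 3 followed gene Length, in the members and in other genes. All 27 of the shortest members (292 to 574 bases) were called higher, with a median log2FC of 0.92. Of 26 members from 602 to 1027 bases, 21 were higher and 1 lower, with a median of 0.51. Of 26 members from 1073 to 2927 bases, 15 were higher and 5 lower, with a median of 0.29. Among genes that are no members, 112 of 172 in the same range of short Length were higher, with a median of 0.80. In the middle range 432 of 793 were higher and 20 lower, with a median of 0.48, and in the long range 1516 of 5756 were higher and 889 lower, with a median of 0.06. Within each range the members' median was thus above that of other genes, by the least in the middle range. Length was not matched within the ranges. From the short to the long range, median Length was 503, 752 and 1593.5 bases in members and 484.5, 839 and 2003 bases in other genes. The part of this in the gaps was not tested. Over 3213 other genes from 453 to 1802 bases, the 10th to the 90th percentile of the members' Length, 1257 were higher and 252 lower, with a median of 0.22. Of these, 1020 also had a mean level of 29.3 to 214 CPM, the same percentiles of the members' CPM. Among those 567 were higher and 127 lower (55.6% and 12.5%), with a median of 0.20, against 79.7% and 7.59% of the members. Spearman's rho between log2FC and Length was -0.59 over the 79 members and -0.33 over all 13802 genes, across genes that share libraries and are not independent.

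Set against genes within 20% of their own Length, members were spread on both sides. Of 79 members 45 were above the median of such genes, by a median of 0.10 and from -0.70 to 0.94 on the log2 scale. Cox7b stood highest, 0.94 above its median of 0.31, and Cox4i1 lowest, 0.70 below its median of 0.52. By library, the members' median log2 difference from siControl of day 3 was 0.62, 0.24 and 0.80 in the siChst7 replicates, and that of the 3213 genes of like Length was 0.27, 0.11 and 0.31. The same order of libraries thus held in both. In siChst7 replicate 3 of day 0 the members' median was -0.18 and that of genes of like Length -0.09.

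When a trend with Length was taken out of each library as an offset, the day 3 result changed. Then 33 members were higher and 22 lower, with a median log2FC of 0.10, where 18.6% of all genes tested were higher and 25.9% lower. Of the genes of like Length 670 were higher and 804 lower, and of the 1020 also of like CPM 302 were higher and 397 lower. Complex III had 6 of 8 members higher and 2 lower, complex I 16 higher and 10 lower, complex IV 5 and 4, and complex V 5 and 5. Uqcrb, Cox6c, Cox7a2, Cox7c and Ndufa4 were still called higher, with log2FC of 0.57, 0.54, 0.72, 0.48 and 0.47. Sdhc, Uqcrc1, Ndufv1, Atp5a1, Cox4i1 and Atp5b were still called lower, with log2FC of -0.62, -0.44, -0.39, -0.26, -0.67 and -0.23. Cox6a1 turned to -0.48 and Uqcr11 to -0.15, both called lower with the offset. Whether the trend with Length arose in the cells or in the libraries was not tested, and the offset takes out either.

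**Figure D3:**
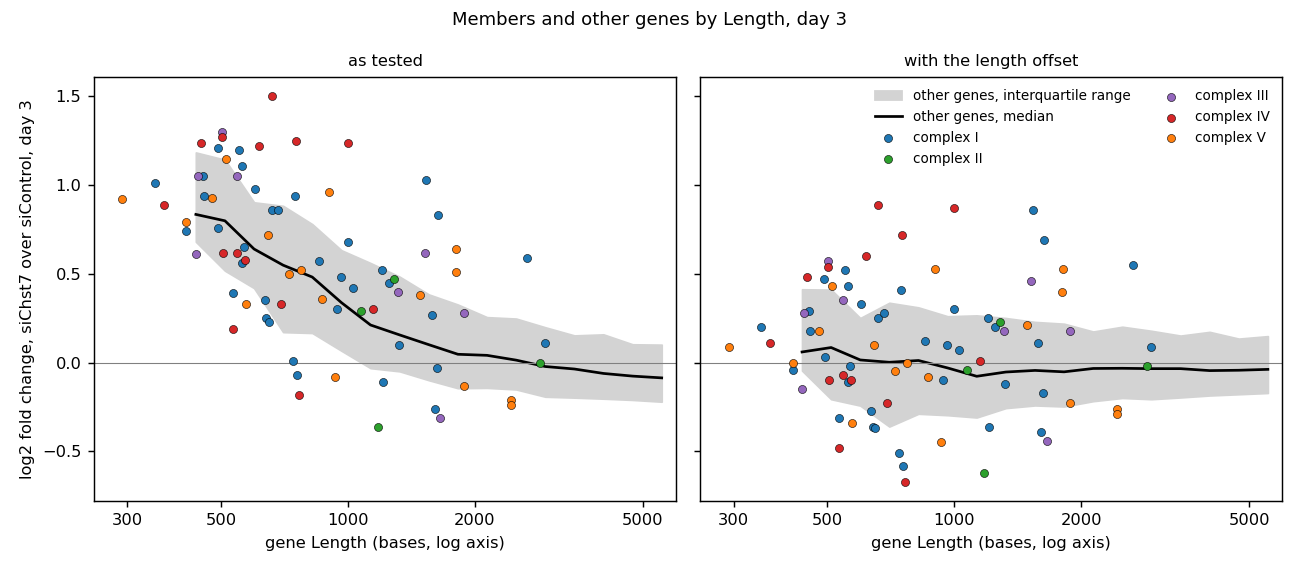
Log2 fold change of siChst7 over siControl on day 3 (y axis) against gene Length in bases (x axis, log scale), as tested at left and with the length offset at right, for members by complex and for other genes as median and interquartile range. At left the members with the shortest Length run from 0.19 to 1.3, with a median of 0.92, where other genes of that range had a median of 0.80. These members lie within the band of other genes and on both sides of it. At right the members' median is 0.10 and they lie on both sides of 0.

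The isoforms of complex IV that are restricted to certain tissues were low throughout. Per kilobase, Cox6a2 averaged 4.226 CPM per kb against 402 for Cox6a1, Cox7a1 averaged 1.716 against 211.3 for Cox7a2, and Cox6b2, known from testis, averaged 0.3268 against 279.6 for Cox6b1. Cox8b, the heart isoform, had 7 counts in all, while the common isoform Cox8a averaged 294.8 CPM per kb.

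The siChst7 effect on Cox6a2 changed direction between days. On day 0 it was at 1.78, 2.67 and 2.05 CPM in siChst7 and 3.6, 3.7 and 3.32 CPM in siControl cells. On day 1 it was at 2.9, 2.54 and 2.96 CPM in siChst7 and 1.23, 1.15 and 1.98 CPM in siControl cells. On day 3 it was at 6.16, 3.08 and 5.83 CPM in siChst7 and 1.38, 2.2 and 1.61 CPM in siControl cells. The groups did not overlap on any day, with siChst7 below siControl on day 0 and above it later. The log2FC was -0.71 ± 0.23, 0.94 ± 0.26 and 1.5 ± 0.24 on days 0, 1 and 3 (edgeR adjusted p = 0.0257, 0.0147 and 3.14e-05). The difference from day 0 was itself called on day 1, at 1.65 ± 0.35 (edgeR adjusted p = 0.00285), and on day 3, at 2.21 ± 0.33 (edgeR adjusted p = 2.35e-05). The call of day 0 was lost without any of 4 single libraries (log2FC -0.58 to -0.70), and that of day 1 without siControl replicate 1 (0.84) or 2 (0.80). With the length offset the log2FC of day 3 was 0.89 ± 0.21 (edgeR adjusted p = 0.000936).

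Cox7a1 had 1.48, 1.57 and 2.32 CPM in siChst7 and 1.13, 0.869 and 0.895 CPM in siControl cells of day 3, from 39 to 72 counts per library. The groups did not overlap, with a log2FC of 0.89 ± 0.32 (edgeR adjusted p = 0.0279). That call was lost without siChst7 replicate 3 (log2FC 0.62, adjusted p = 0.18) and with the length offset (log2FC 0.11, adjusted p = 0.807), both by edgeR. Cox7a2, its common counterpart, had 351, 267 and 420 CPM in siChst7 and 145, 146 and 145 CPM in siControl cells. Its log2FC was 1.25 ± 0.10 (edgeR adjusted p = 1.53e-08). Cox7a2l, which helps join complexes III and IV into supercomplexes, had a log2FC of 0.30 ± 0.08 (edgeR adjusted p = 0.0034), or 0.15 without siChst7 replicate 3 (edgeR adjusted p = 0.0826). Cox6b2 had 0.407, 0.562 and 0.966 CPM in siChst7 and 0.339, 0.212 and 0.276 CPM in siControl cells, at most 30 counts a library, and its call (log2FC 1.22 ± 0.49, edgeR adjusted p = 0.0496) was lost in 5 of 6 fits without a library. Cox6a1 had 277, 269 and 299 CPM in siChst7 and 245, 245 and 250 CPM in siControl cells (log2FC 0.19 ± 0.05, edgeR adjusted p = 0.00258), and was not called without siChst7 replicate 3 (log2FC 0.10, edgeR adjusted p = 0.131). It turned to -0.48 with the length offset. Cox4i1, the counterpart of Cox4i2, fell to 403, 419 and 415 CPM in siChst7 cells, against 464, 469 and 469 CPM in siControl cells, with a log2FC of -0.18 ± 0.05 (edgeR adjusted p = 0.00406). Ndufa4l2 stayed below 1 CPM in every library, with a log2FC of 0.48 ± 0.60 on day 3 (edgeR adjusted p = 0.549).

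**Figure D4:**
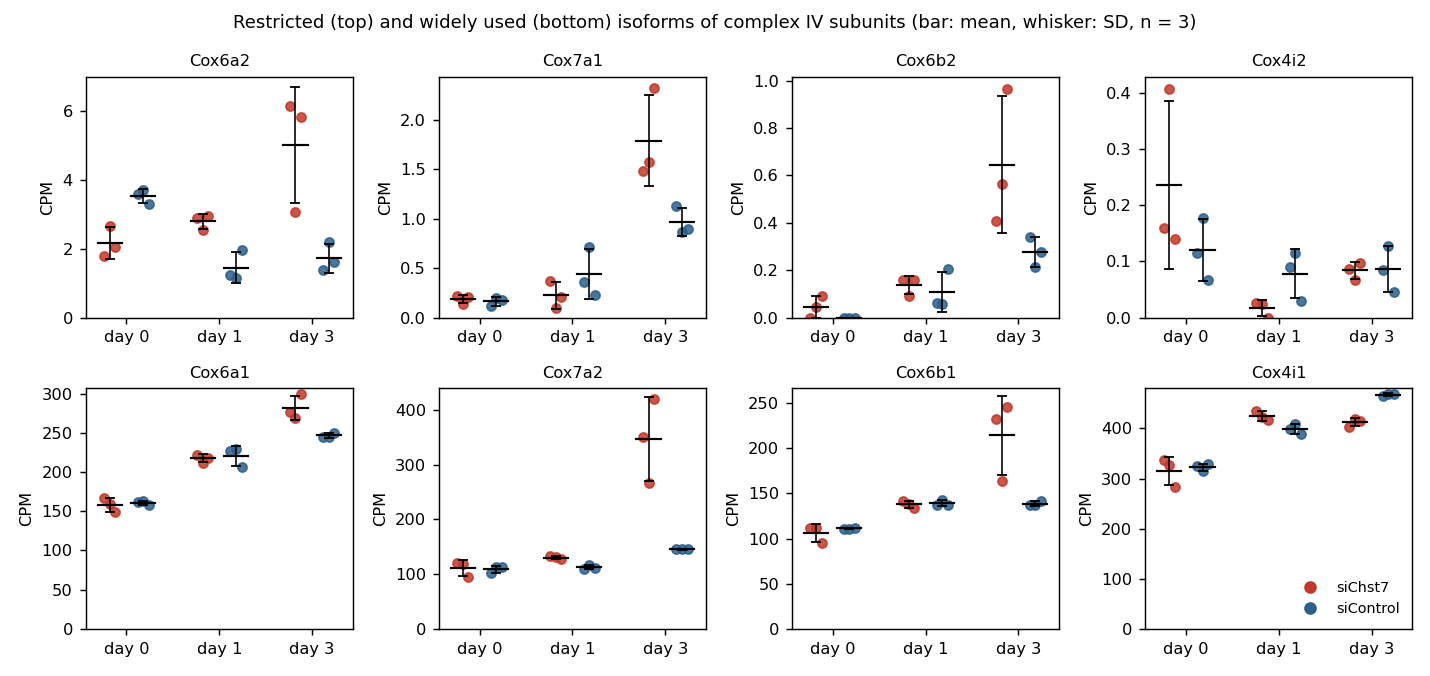
CPM (y axis, a scale for each gene) by day (x axis) of restricted isoforms of complex IV subunits in the top row and of their common counterparts in the bottom row, with a point per library, the mean as a bar and the SD as a whisker (n = 3). Cox6a2 is lower in siChst7 on day 0 and higher on days 1 and 3, and Cox4i1 is the common isoform that is lower in siChst7 on day 3.

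In siControl cells, many members were higher after induction than on day 0. By day 1, 36 of 79 were higher and 1 was lower than on day 0, with a median log2FC of 0.18, where 29.5% of all genes tested were higher and 30.8% lower. By day 3, 41 were higher and 6 lower than on day 0, with a median of 0.23, where 33.9% were higher and 39.5% lower. When the 6 libraries compared were fitted alone, 56 were higher and 4 lower on day 1. That fit leaves out the spread of the other groups, and the share of all genes in it was not worked out. Both comparisons share the siControl libraries of day 0. In the same siControl libraries Rn45s took 0.249% to 0.278% of counts on day 1 and 0.399% to 0.542% on day 3, against 0.131% to 0.168% on day 0, and its log2FC against day 0 was 0.83 ± 0.28 on day 1 and 1.49 ± 0.28 on day 3, both called. Of 14 tested cardiac muscle markers 10 were higher on day 1 and 13 on day 3, with medians of 1.5 and 5.89, and none was called lower. Their summed level was 157 to 163 CPM on day 1 and 1340 to 1430 CPM on day 3, against 18.9 to 21.1 CPM on day 0. The part of either in the members' change was not tested. Genes of like Length had 828 of 3213 higher and 786 lower on day 1, with a median of 0.01, and 1075 higher and 1066 lower on day 3, with a median of -0.01. Those also of like CPM had 331 of 1020 higher and 288 lower on day 1, and 339 higher and 435 lower on day 3. Of the members 67 of 79 were above the median of genes within 20% of their Length on day 1, and 64 of 79 on day 3. Spearman's rho between log2FC and Length was 0.01 on day 1 and -0.01 on day 3 over all genes, and -0.08 and -0.20 over the members. In the shortest range of Length, 19 of 27 members were higher and 0 lower on day 3, with a median of 0.40. Of 172 other genes in that range 27 were higher and 64 lower, with a median of -0.22. With the length offset 45 members were higher and 1 lower on day 1, against 31.2% and 30.9% of all genes, and 50 higher and 9 lower on day 3, against 37.5% and 36.7%. Groups did not overlap for 56 higher and 4 lower members on day 1, where 33.9% and 35.2% of all genes were such, and for 53 higher and 12 lower on day 3, where 36.7% and 42.5% were. Between days 3 and 1, 16 were higher and 11 lower on day 3, against 22.8% and 32.3% of all genes tested. The count of higher members was 25 with DESeq2's size factors and 38 with library totals, scalings for which the share of all genes was not worked out. With the length offset 28 members were higher and 10 lower, against 27% and 28.5% of all genes. Groups did not overlap for 31 higher and 23 lower members, against 27.8% and 37.8%.

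By complex, on day 3 against day 0 in siControl cells, complex IV had 9 of 14 members higher and 1 lower, complex I 20 of 36 higher and 2 lower, complex III 4 of 8 higher and 0 lower, complex II 2 of 4 higher and 0 lower and complex V 6 of 17 higher and 3 lower. The share in complex V, 35.3% higher, was near the 33.9% of all genes tested. It includes Atp5s and Atp5sl, which are not subunits of ATP synthase and were both called higher. Without them 39 of 77 members of all complexes were higher, and the share in complex V was below that of all genes tested. The member called lower on day 1 was Cox6a2, which was also called lower on day 3. Cox6a2 was at 1.23, 1.15 and 1.98 CPM on day 1 and 3.6, 3.7 and 3.32 CPM on day 0 in siControl cells, with no overlap and a log2FC of -1.28 ± 0.25 (edgeR adjusted p = 0.000158). Cox7a1, the other heart isoform, rose by day 3 to 1.13, 0.869 and 0.895 CPM, against 0.115, 0.199 and 0.178 CPM on day 0, with a log2FC of 2.52 ± 0.43 (edgeR adjusted p = 1.77e-05). Cox6b2 had 0 counts in the siControl libraries of day 0 and 34 in those of day 3. Its level of 0.269 CPM over the group on day 3 was at least 12-fold higher than the 0.0225 CPM that 3 counts over the day 0 group would give.

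Ndufa13 was at 152, 152 and 151 CPM on day 3 and 70.5, 75.3 and 78.8 CPM on day 0 in siControl cells, with a log2FC of 1.02 ± 0.07 (edgeR adjusted p = 3.68e-12). It shares 30.0% of its exon bases with Tssk6 on the opposite strand, which stayed below 1 CPM, and the strand setting of the counting is not given in the sources used here. Atp5s was at 10.6, 10.2 and 10.3 CPM on day 3 and 4.06, 3.74 and 4.44 CPM on day 0, with a log2FC of 1.35 ± 0.12 (edgeR adjusted p = 7.02e-10). Cox4i1 rose by 0.54 ± 0.05 and Cox7a2l by 0.85 ± 0.08 on the log2 scale by day 3, both called. The members that fell by day 3 were Cox6a2, Ndufa10, Atp5g3, Atp5g1, Atp5a1 and Ndufa8. Ndufa10, an accessory complex I subunit, was at 64, 69.7 and 68.3 CPM on day 3 and 86.4, 83.5 and 88.8 CPM on day 0, with no overlap and a log2FC of -0.36 ± 0.05 (edgeR adjusted p = 5.39e-07). The falls of Atp5g3, Atp5g1, Atp5a1 and Ndufa8, of 0.15 to 0.23 on the log2 scale, were not called when libraries were scaled by DESeq2's size factors, by their totals or by the upper quartile.

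**Figure D5:**
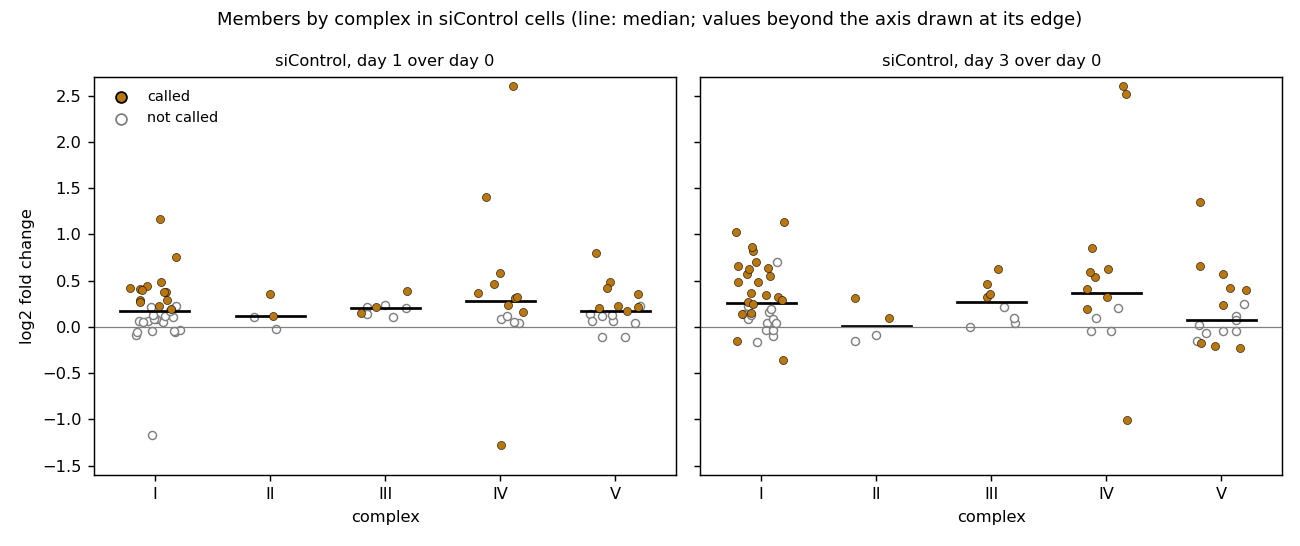
Log2 fold change in siControl cells (y axis) of day 1 over day 0 at left and day 3 over day 0 at right for each tested member by complex (x axis), with filled points for called members and lines at the medians. The medians of all 5 complexes are above 0 in both panels, that of complex II by 0.01 on day 3, and the point at the upper edge in both is Cox6b2.

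The siChst7 effect of day 3 differed from that of day 0 for most members. The difference was called higher for 57 of 79 and lower for 5, with a median of 0.57, where 20.7% of all genes tested were called higher and 18.1% lower. The 5 were Sdhc, Uqcrc1, Ndufv1, Atp5a1 and Sdha. For day 1 it was called higher for 1 member, Cox6a2, and lower for 0 by edgeR, against 6.2% and 5.5% of all genes tested. At an unadjusted p below 0.05 it was lower for 0 members as well, and DESeq2 also gave 1 higher, Cox6a2, and 0 lower. With the length offset 27 were called higher and 21 lower on day 3, against 17.5% and 20.8% of all genes, and 1 higher and 1 lower on day 1, against 7.53% and 5.8%.

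Among other genes of the pathway, some lists had more members called higher in siChst7 cells of day 3 than the 23.1% of all genes tested, with 21.6% lower, and others were near it. Among electron carriers and enzymes that feed the chain, 10 of 14 tested were higher and 1 lower in siChst7 than in siControl cells of day 3. Cycs, cytochrome c, had a log2FC of 1.11 ± 0.10 and Gpd2, the mitochondrial glycerol-3-phosphate dehydrogenase, -0.39 ± 0.04 (edgeR adjusted p = 7.04e-08 and 7.59e-07). Of complex I assembly factors 10 of 15 were higher and 2 lower, with Ndufaf4 at 0.64 ± 0.08. Of assembly factors of complexes II to V, 17 of 31 were higher and 3 lower, with the copper chaperone Cox17 at 1.12 ± 0.12. Of tricarboxylic acid cycle enzymes 5 of 18 were higher and 4 lower (27.8% and 22.2%), with a median of 0.00. The citrate synthase gene Cs was at -0.27 ± 0.04. Of regulators of mitochondrial biogenesis 5 of 23 were higher and 3 lower (21.7% and 13%), with the RNA-binding partners Slirp at 1.44 ± 0.10 and Lrpprc at -0.24 ± 0.04. Of mitochondrial ribosomal proteins 49 of 77 were higher and 2 lower, with a median of 0.32. Of cytosolic ribosomal proteins 69 of 80 were higher and 1 lower, with a median of 0.77, a list that has no part in respiration. The symbol pattern of that list was trimmed after the matching symbols were seen, to drop kinase and binding protein genes. Most of these counts moved with the length offset, where 18.6% of all genes tested were higher and 25.9% lower. Electron carriers and feeding enzymes then had 5 of 14 higher and 6 lower, with a median of -0.09, and complex I assembly factors 5 of 15 higher and 2 lower. Assembly factors of complexes II to V had 10 of 31 higher and 9 lower, tricarboxylic acid cycle enzymes 2 of 18 higher and 7 lower, and regulators of biogenesis 5 of 23 higher and 2 lower. Mitochondrial ribosomal proteins had 22 of 77 higher and 17 lower, with a median of 0.02, and cytosolic ribosomal proteins 48 of 80 higher and 15 lower, with a median of 0.22.

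During induction in siControl cells the lists differed from each other and between days. By day 3 against day 0, 1 of 80 cytosolic ribosomal genes was higher and 65 lower, with a median of -0.42. Complex I assembly factors had 2 of 15 higher and 8 lower, with Ndufaf4 at -0.83 ± 0.08 and Tmem186 at -0.75 ± 0.07. Assembly factors of the other complexes had 7 of 31 higher and 13 lower. Electron carriers and feeding enzymes had 5 of 14 higher and 4 lower, and mitochondrial ribosomal proteins 17 of 77 higher and 35 lower. These stand against 33.9% of all genes tested higher and 39.5% lower. Tricarboxylic acid cycle enzymes had 10 of 18 higher and 2 lower on day 1, with a median of 0.12, where 29.5% and 30.8% of all genes were called. On day 3 they had 5 of 18 higher and 9 lower, with Pdhx, a component of pyruvate dehydrogenase, at 1.87 ± 0.05 and Suclg2 at -1.31 ± 0.06. Regulators of biogenesis had 5 of 23 higher and 9 lower on day 3, and 3 higher and 11 lower on day 1. Ppargc1a, the coactivator PGC-1α, had a log2FC of 1.52 ± 0.12 on day 1 (edgeR adjusted p = 3.99e-10), while its relative Pprc1 had -0.46 ± 0.05 (edgeR adjusted p = 7.39e-08).

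Members with and without each promoter motif overlapped widely in their change. On day 3, the 16 members with the NRF1 motif had a median log2FC of siChst7 over siControl of 0.52, from -0.31 to 1.2, and the 47 without it 0.62, from -0.26 to 1.25. The 16 with the ETS motif had a median of 0.62, from 0.19 to 1.15, all called higher. The 47 without it had a median of 0.58, with 38 called higher and 3 lower. The 7 with the ERR motif had a median of 0.92, from 0.47 to 1.15, and the 56 without it 0.57, from -0.31 to 1.25. Gene Length was not compared between members with and without a motif. The part of the trend with Length in these medians was not tested. In siControl cells on day 3 against day 0, medians were 0.11 with and 0.25 without the NRF1 motif, and 0.29 with and 0.20 without the ETS motif. No test was made of these splits, and the 17 members without a promoter window are in none of them. Among those 17 are Sdhc, Atp5a1 and Cox4i1, called lower in siChst7 cells of day 3, and Uqcrb and Cox6c, called higher. Uqcrc1, whose NRF1 matches are shown above, was the lowest member of its group on day 3, and Atp5l, with its ETS and ERR matches, was among the higher ones.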

How the data were processed

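Messenger RNA was sequenced after poly-A selection, per the labels' protocols. The deposited table holds raw whole-number counts of reads for each gene, made by the authors with HISAT2 and featureCounts of Subread on mm10, per the submitters' processing notes, which also name DESeq2. Versions, annotation release, strand setting and the handling of multi-mapping reads are not given in the sources used, so that counts of members with close copies elsewhere in the genome are uncertain. In GENCODE M21, 23 members share exon bases with another row, 21 of them with a row on the opposite strand. Atp5o (with Donson) and Ndufa13 (with Tssk6) share at least 25%. The entry used for Atp5o has 530 exon bases and shares 243 of them with another entry of the same symbol. The deposited Length of Atp5o is 772 bases, so its overlap with Donson, and its place among the 23, may not describe the counted gene. Count columns were matched to samples by library name.

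Counts were tested in R 4.3.3 with edgeR 4.0.16, filterByExpr (13802 genes), TMM scaling and a quasi-likelihood fit of 6 groups and 18 libraries (12 residual degrees of freedom, biological coefficient of variation 5.75%), two-sided, with Benjamini-Hochberg adjustment over all genes in each of 8 comparisons. SE was worked back from the F statistic and the size of log2FC. The length offset is a loess curve (span 0.3) of each library's log2 ratio to the mean on log2 Length. DESeq2 1.42.0 and other settings were alternatives. The scripts were tested on simulated data. Genes of like Length lay within 453 to 1802 bases. Levels that a count of 0 allows are for 3 counts and cover counting error only. Replicate numbers did not pair samples: correlations of same-numbered samples' deviations were -0.02 to 0.06 over 18 pairs. Named members were paired isoforms, the 3 largest called changes each way, the highest and lowest per kilobase of each complex, those against the majority on day 3 and those not tested, and for other lists up to 3 called genes with the smallest p. Some genes that this rule names are not reported here. The members, lists and tests were chosen with earlier results of these data known.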

Additional observations from a re-analysis of the deposited data

Results flagged for a closer look

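For 21 named members the siChst7 effect of day 3 differed from that of day 0, and for Cox6a2 that of day 1 did too, by the interaction term of the edgeR quasi-likelihood fit at an adjusted p below 0.05. Cox6a2 differed by 1.65 ± 0.35 on day 1 and by 2.21 ± 0.33 on day 3 (log2 ± SE), since siChst7 was below siControl on day 0 and above it later. Among the common subunits of complex IV the difference was 1.25 for Cox7c, 1.23 for Cox7a2, 1.22 for Cox6c, 0.69 for Cox6b1, 0.52 for Cox8a, 0.40 for Cox7a2l and 0.22 for Cox6a1. In complex III it was 1.27 for Uqcrb, 0.57 for Uqcr11, 0.41 for Uqcrc2 and -0.32 for Uqcrc1. In complex I, by symbol, it was 1.15 for Ndufa4 (later assigned to complex IV), 0.42 for Ndufa13 and -0.29 for Ndufv1. In complex V it was 0.79 for Atp5g2, 0.44 for Atp5g3 and -0.24 for Atp5a1. In complex II it was 0.55 for Sdhd, -0.22 for Sdhc and -0.14 for Sdha. The difference turned with the length offset for Cox6a1 (-0.48), Cox6b1 (-0.05), Cox8a (-0.19), Atp5g3 (-0.13) and Uqcr11 (-0.21). Both days' terms share the libraries of day 0.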

How the results depend on the processing

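The counts of day 3 in siChst7 against siControl, 63 members higher and 6 lower, depended on gene Length: with the length offset they were 33 and 22, and 33 and 21 with the replicate block as well, and the median log2FC fell to 0.10. The difference from day 0, 57 higher and 5 lower, became 27 and 21, or 28 and 21 with the block, and 8 lower with library totals. For day 0, 1 higher became 3 with library totals or the compared libraries alone, 4 with no filter, 6 with the offset and 5 with offset and block, and 2 lower became 1 with library totals, no filter or a stricter filter. For day 1, 2 higher became 1 with library totals or the stricter filter, 12 with no filter and 20 with the compared libraries alone, and 1 lower became 7, 8 and 2 with the offset, offset and block, and compared libraries. The difference of day 1 from day 0, 1 higher and 0 lower, became 4, 0 and 2 higher with no filter, the stricter filter and the compared libraries, and 1 and 2 lower with the offset and with offset and block.

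In siControl cells, 36 higher on day 1 became 56 with the compared libraries alone, and 1 lower became 2 with no filter or offset and block, 0 with the stricter filter and 4 with the compared libraries. For day 3 against day 0, 6 lower became 2 with DESeq2's size factors, library totals or the upper quartile and 1 with the stricter filter. For day 3 against day 1, 16 higher became 25, 38, 30, 32, 28, 28, 27 and 38 with size factors, totals, upper quartile, no filter, stricter filter, offset, offset and block, and compared libraries, and 11 lower became 4, 5 and 5 with totals, upper quartile and the stricter filter. Medians moved to 0.38 and 0.20 for day 3 against days 0 and 1 with library totals, and to 0.07 for the difference of day 3 from day 0 with the offset. Scaling by totals shifted the median of all genes by 0.15 in both siControl comparisons of day 3. Shares of all genes called were worked out only for the main fit and the length offset, so counts from the other settings have no background beside them. The replicate block alone moved no count by over 1.5 times; its numbers do not pair the samples.

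With the offset, and with offset and block, these values turned: on day 3 Cox6a1 (-0.48 and -0.49), Cox6b1 (-0.10), Cox8a (-0.07), Atp5g1 (-0.08), Atp5g3 (-0.05) and Uqcr11 (-0.15), and in the difference from day 0 Cox6a1 (-0.48), Cox6b1 (-0.05), Cox8a (-0.19), Atp5g3 (-0.13) and Uqcr11 (-0.21). Over fits without a single library, higher members were 1 to 2, 0 to 2 and 50 to 65 on days 0, 1 and 3, 1 and 49 to 64 for the differences of days 1 and 3, and 27 to 33, 34 to 39 and 11 to 15 in siControl (day 1 and day 3 against day 0, day 3 against day 1). Lower members were 0 to 2, 1 and 6 to 8, then 0 and 4 to 8, then 1, 4 to 6 and 8 to 11. The lowest count of day 3, 50, was without siChst7 replicate 3. Of 1956 values of 115 results for named genes, 1800 kept direction and call, 134 lost the call and 22 turned. The cause of these changes was not tested. Depth limits Cox6b2, Cox7a1, Ndufa4l2 and Cox4i2, with at most 72 counts in any library.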
